A study of Mus musculus with 2 samples.

Results

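The genes of MHC antigen presentation were followed through the cell classes of the adult mouse mammary gland, in single-cell RNA-seq of 1 control library and 1 library with an induced deletion of the miR-200c/141 locus. The members were taken by name: every gene whose symbol begins with H2- and a capital letter, and B2m, Tap1, Tap2, Tapbp, Psmb8, Psmb9, Psmb10, Psme1, Psme2, Nlrc5, Ciita, Cd74, Erap1 and Calr. This gave 48 of the 31053 genes in the files. They comprised 2 class Ia heavy chains, 22 class Ib heavy chains, the class I light chain B2m, 5 genes of class II chains and their invariant chain, 5 class II peptide editors and their modulators, 5 genes of peptide transport and loading, 5 of the immunoproteasome and its activator, 2 regulators, and H2-Ke6, which carries the H2 name but encodes a steroid dehydrogenase and no MHC chain. In all used cells together, 36 members had at least 20 unique molecular identifiers (UMIs, the counted molecules), 4 had 1 to 19, and 8 had none. The 8 without a UMI were H2-T3, H2-M1, H2-M10.1, H2-M10.2, H2-M10.3, H2-M10.4, H2-M10.5 and H2-M10.6.

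MHC class I molecules carry peptides made inside the cell to its surface, where CD8 T cells read them. The proteasome cuts the peptides, the TAP transporter moves them into the endoplasmic reticulum, and calreticulin and tapasin help to load them onto a heavy chain paired with B2m. Interferon-γ is known to raise most of these genes together, through IRF1 and NLRC5 among others, and to exchange catalytic subunits of the standard proteasome for those of the immunoproteasome. Class II molecules carry peptides from endocytic compartments to CD4 T cells, are guided there by the invariant chain Cd74, and are largely the business of dendritic cells, macrophages and B cells. In the mammary gland, luminal cells line the ducts in a hormone-sensing and a progenitor kind, basal cells form the contractile outer layer, and high endothelial venules, whose cells make Glycam1, are the vessels through which lymphocytes enter lymph nodes.

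Both libraries came from C57BL/6 mice with loxP sites around both alleles of miR-200c/141 (genotype miR-200c/141-flox/flox). The control library (Ctrl) carried no further allele, and the other library (cKO) also carried K8-CreERT2, a Cre that tamoxifen activates and the promoter of keratin 8, a luminal keratin, drives. Tamoxifen was given at 8 to 10 weeks of age and glands were taken 4 weeks later, and 8 weeks is also stated as the age of the mice. Mammary cells were enriched by FACS, and neither the sort gate nor the number of mice per library is stated in the sources used here. The microRNAs are not among the genes of the files, so the deletion was not measured here. Because K8-CreERT2 acts in luminal cells, basal and endothelial cells are not its target cells.

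The files held 4237 Ctrl barcodes with 95520633 UMIs and 6257 cKO barcodes with 103668011 UMIs, and 3389 and 5438 cells were used. The median depth was 19799 UMIs per cell in Ctrl and 13905 in cKO, and 6 cell barcodes occurred in both libraries. Cells were put into classes by marker genes, none of which is a member: 549 Ctrl and 1201 cKO hormone-sensing-like (HS-like) cells, 657 and 1096 luminal-progenitor-like (LP-like), 1050 and 900 basal-like, 45 and 310 Glycam1-high endothelial-like, 56 and 115 other blood endothelial-like, 12 and 107 lymphatic-endothelial-like, and 8 and 26 fibroblast-like. A further 728 and 944 luminal cells carried both luminal marker sets. Their median depth was 48666.5 and 28321 UMIs, far above that of the other luminal classes, and the share of cell pairs among them was not tested. With 1 library per group there was no test between groups, every interval is a 95% interval for counting error only, and a difference between the libraries cannot be told apart from differences between mice, dissociations or sorts. Levels are in CPM, the UMIs of a gene per 1000000 UMIs of the class. They count molecules from the 3′ end and are not divided by gene length. A member is called higher or lower where its level differed by at least 1.5-fold and it had at least 20 UMIs in the 2 sums compared, and the share of all genes called by the same rule is given as the background.

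Of the 48 members, 39 lie on chromosome 17, the 34 H2- members among them, between positions 33915899 and 37483552 (GRCm38). B2m lies on chromosome 2, Calr, Nlrc5 and Psmb10 on chromosome 8, Psme1 and Psme2 on chromosome 14, Erap1 on 13, Ciita on 16 and Cd74 on 18. Upstream sequence was available for 41 members. In the 250 bases before each RefSeq start, the perfect κB site that NF-κB binds, shown in capitals in the H2-K1 sequence, was found on either strand in 4 members (H2-K1, H2-D1, H2-Q6 and H2-Q7) and in 0.0852% of all 32851 windows. An interferon-stimulated response element, shown in capitals in the B2m sequence in 1 of its forms, was found in B2m, H2-T22 and H2-T23 and in 2.98% of all windows. TTCNNNGAA, a gamma-activated sequence, was found in Psmb8, H2-M3, H2-M11 and H2-DMb2 and in 7.02% of all windows. An endoplasmic reticulum stress element, shown in the Calr sequence, was found in Calr and in 0.113% of all windows, and an X1 box of class II genes in H2-DMb1 and in 0.0731%. Psmb9 and Tap1 start back to back on opposite strands with 225 bases between their RefSeq starts. The upstream sequences of 4 members that differed in level between cells are shown 5′ to 3′ on the strand of the gene (RefSeq, GRCm38.p6), with the motif in capitals. H2-K1 is a heavy chain found in every cell class, H2-Q4 a heavy chain that was highest in HS-like cells, and B2m and Calr were the 2 members called lower in cKO in those cells. No motif of the 5 lies in the H2-Q4 window, which says only that these letters are not there. The same holds for every member not named for a motif, because looser forms of the motifs were not searched.
H2-K1, chr17:34000348-34000597, minus strand: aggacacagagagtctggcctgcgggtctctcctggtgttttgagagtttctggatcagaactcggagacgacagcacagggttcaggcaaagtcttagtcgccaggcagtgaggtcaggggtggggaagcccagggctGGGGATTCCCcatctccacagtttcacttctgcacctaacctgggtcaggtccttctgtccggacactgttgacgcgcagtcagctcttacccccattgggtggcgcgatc
H2-Q4, chr17:35379367-35379616, plus strand: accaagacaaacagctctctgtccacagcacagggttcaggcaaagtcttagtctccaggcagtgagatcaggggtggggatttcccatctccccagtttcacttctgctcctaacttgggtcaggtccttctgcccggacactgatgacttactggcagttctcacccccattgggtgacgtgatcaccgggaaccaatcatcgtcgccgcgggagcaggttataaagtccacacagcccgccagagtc
B2m, chr2:122147437-122147685, plus strand: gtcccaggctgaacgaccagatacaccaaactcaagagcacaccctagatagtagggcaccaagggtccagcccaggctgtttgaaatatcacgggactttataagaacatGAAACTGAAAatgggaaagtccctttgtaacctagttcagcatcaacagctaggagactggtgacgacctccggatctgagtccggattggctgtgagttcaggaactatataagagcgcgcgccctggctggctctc
Calr, chr8:84846935-84847181, minus strand: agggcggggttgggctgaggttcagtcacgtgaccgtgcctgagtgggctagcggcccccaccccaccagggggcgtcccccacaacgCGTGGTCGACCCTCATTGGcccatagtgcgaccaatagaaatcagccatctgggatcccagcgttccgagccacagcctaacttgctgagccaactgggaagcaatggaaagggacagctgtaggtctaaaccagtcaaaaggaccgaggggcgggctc
The capitals mark the κB site of H2-K1, the interferon-stimulated response element of B2m on its reverse strand and the stress element of Calr on its reverse strand. A match is a description of the letters and does not show that a factor binds there.

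**Figure D1:**
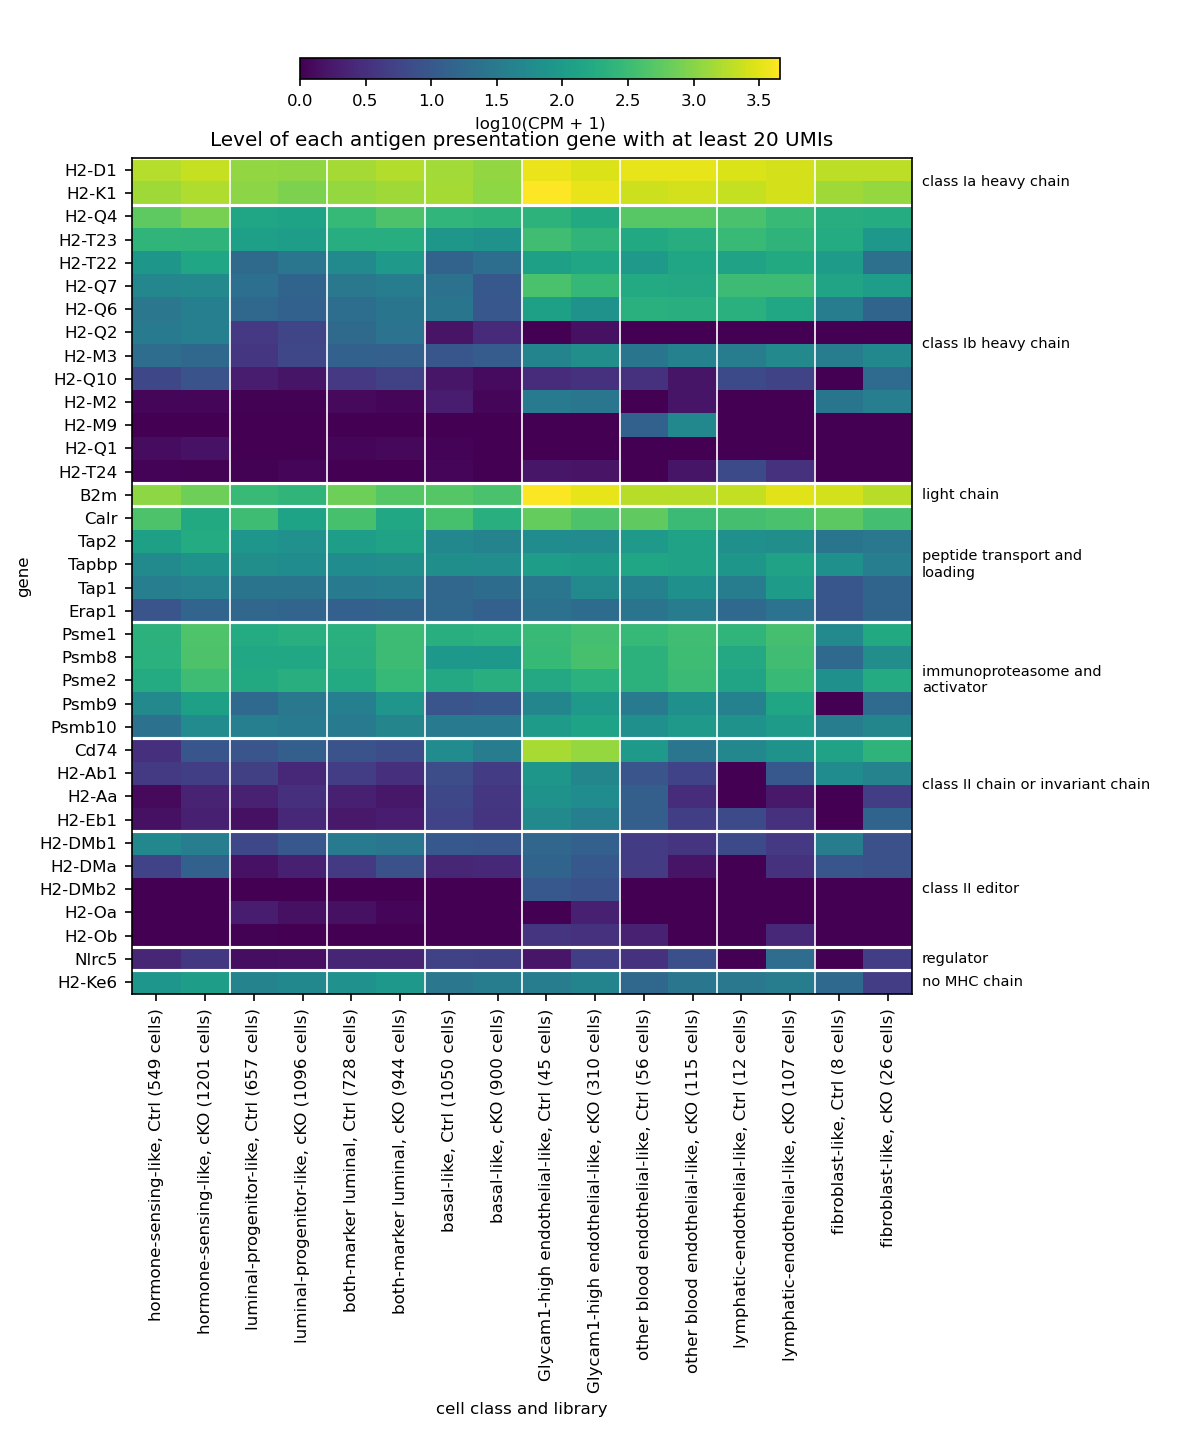
Levels of the 36 members with at least 20 UMIs, as log10(CPM + 1), in the 8 cell classes, each in the Ctrl and the cKO library; members are grouped by role. The class I heavy chains H2-K1 and H2-D1 and B2m are high in every column, while Cd74 stands out in the Glycam1-high endothelial-like columns (1525 CPM in Ctrl and 1196 in cKO).

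Class I genes were present in every class, and endothelial cells had more of their mRNA than epithelial cells. The 24 heavy chains summed reached 9385 CPM in Ctrl and 7330 in cKO in Glycam1-high endothelial-like cells, 6989 and 7163 in other blood endothelial-like cells, and 6401 and 6551 in lymphatic-endothelial-like cells. Among epithelial classes the sum was 4155 and 5185 in HS-like cells, 3283 and 2627 in basal-like cells, and 2526 and 2310 in LP-like cells. The 3 endothelial classes were thus above the epithelial classes in both libraries, and LP-like cells were the lowest of all 8 classes. H2-K1 and H2-D1, the classical chains, gave 75.1% of the class I heavy chain UMIs in HS-like cells of Ctrl and 87.5% in LP-like and basal-like cells. A UMI of H2-K1 was found in at least 98.5% of cells in each of these 3 epithelial classes and both libraries.

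B2m, the light chain that every class I heavy chain needs, varied more between classes than the heavy chains did. Its level in Ctrl ran from 289 CPM in LP-like cells through 489 in basal-like and 1076 in HS-like cells to 4304 in Glycam1-high endothelial-like cells. In cKO the order of these 4 classes was the same, at 247, 401, 715 and 3384 CPM. Set against the heavy chains, there were 11.4 B2m UMIs per 100 heavy chain UMIs in LP-like cells of Ctrl and 10.7 in cKO, but 45.9 and 46.2 in Glycam1-high endothelial-like cells. Basal-like cells had 14.9 and 15.3, and other blood endothelial-like cells 26.3 and 25.9. In these 4 classes the 2 libraries thus lay close together. There were fewer in cKO in HS-like cells (25.9 in Ctrl and 13.8 in cKO), in the cells with both luminal marker sets (21.2 and 12.9) and in fibroblast-like cells (62.7 and 50.7), and more in lymphatic-endothelial-like cells (32.9 and 47.9).

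**Figure D2:**
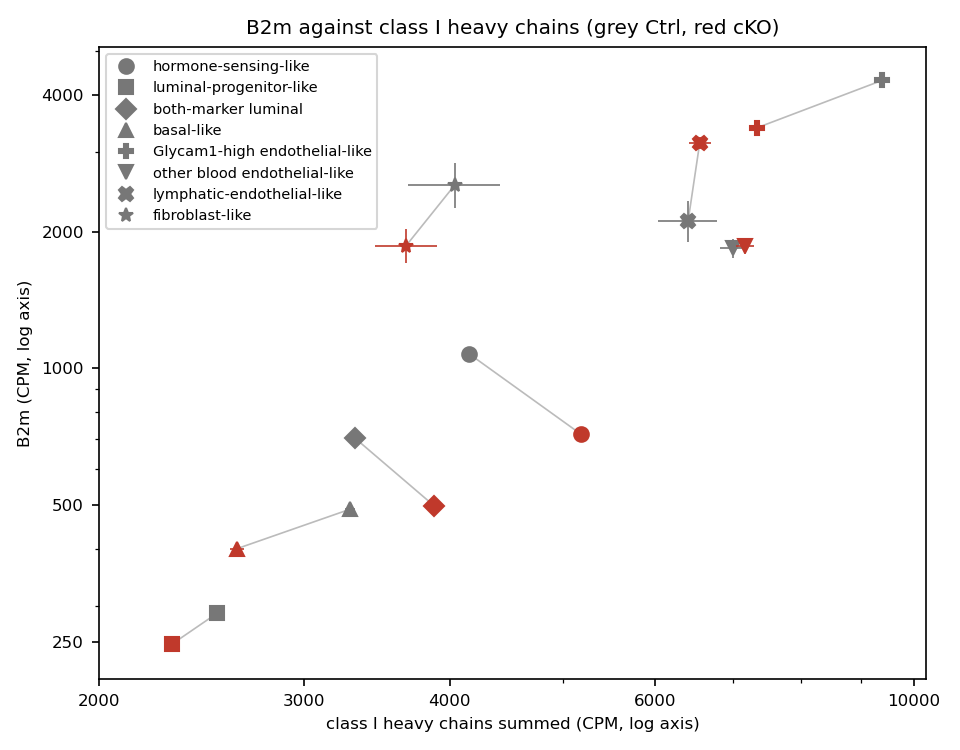
B2m level against the summed level of the 24 class I heavy chains, both in CPM on log axes, 1 grey point (Ctrl) and 1 red point (cKO) per cell class, joined by a line. HS-like cells move down and to the right (B2m 1076 to 715 CPM, heavy chains 4155 to 5185 CPM); LP-like cells lie lowest on both axes.

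HS-like cells carried more class I mRNA than LP-like cells in both libraries. Of 28 members with enough UMIs, 14 were higher and 4 lower in HS-like cells of Ctrl, where 31.7% of all genes were higher and 23.9% lower. In cKO, 23 of 29 members were higher and 2 lower, against 33.6% and 21.5% of all genes. All 8 class Ib chains with enough UMIs were higher in both libraries. The summed heavy chains were 1.65-fold higher in Ctrl (95% interval 1.62 to 1.67) and 2.24-fold higher in cKO (2.22 to 2.27). B2m was 3.73-fold higher in Ctrl and 2.90-fold in cKO. The classical chains differed less: H2-K1 was 1.32-fold and 1.91-fold higher, and H2-D1 1.497-fold and 1.95-fold.

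Several class Ib chains differed more between the 2 luminal kinds than the classical chains did. H2-Q4 stood at 568 CPM in HS-like and 141 in LP-like cells of Ctrl, and at 796 and 134 CPM in cKO, a 4.03-fold and a 5.96-fold difference. It made up 13.7% and 15.4% of heavy chain UMIs in HS-like cells and 5.58% and 5.78% in LP-like cells. Within HS-like cells H2-Q4 was uneven: the median cell had 3.11 H2-Q4 UMIs per 10000 UMIs in Ctrl and 4.33 in cKO, and the 95th percentile was 25.04 and 32.2. H2-Q2 was 10.4-fold higher in Ctrl and 7.72-fold in cKO, and H2-T22, a ligand of some γδ T cells, 4.93-fold and 5.24-fold. H2-M3, which presents formylated peptides of bacteria and mitochondria, was 6.98-fold and 3.18-fold higher, and H2-T23, whose product Qa-1 is a ligand of NK cell receptors, 2.18-fold and 2.08-fold. H2-Q2 was nearly limited to luminal cells, with 31.5 and 37.2 CPM in HS-like cells and at most 1.76 CPM outside the luminal classes.

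The class II editors H2-DMa and H2-DMb1, the 2 chains of the protein that exchanges the peptides on class II molecules, were also higher in HS-like than in LP-like cells. H2-DMb1 was at 49.5 CPM in Ctrl and 35.6 in cKO there, and at 5.25 and 8.80 in LP-like cells. H2-DMa was at 4.46 and 12.7 CPM, against 0.506 and 1.13. HS-like cells had the highest H2-DMb1 level of all 8 classes in both libraries. H2-DMa was highest in Glycam1-high endothelial-like cells of Ctrl (14.2 CPM), ahead of fibroblast-like cells (8.52 CPM), and in HS-like cells of cKO. Cd74 was at 2.27 CPM in HS-like and 8.10 in LP-like cells of Ctrl, 3.57-fold lower, and at 8.51 and 11.9 CPM in cKO, under the limit. H2-Ab1 was at 3.25 and 3.99 CPM in Ctrl, under the limit, and at 3.73 and 1.60 CPM in cKO, 2.32-fold higher in HS-like cells. H2-Ke6, whose product oxidizes estradiol, was highest in HS-like cells too, at 82.4 and 108 CPM.

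Between the libraries, the members that differed most evenly in HS-like cells were those of the immunoproteasome and its activator. Of 29 members with enough UMIs, 12 were higher in cKO and 2 lower, while 13.6% of all 12250 genes were higher and 17.6% lower. The members' median log2 ratio was 0.49 and that of all genes -0.07. The 12 were Psmb8, Psmb9, Psmb10, Psme1, Psme2, Erap1, Nlrc5, H2-T22, H2-DMa, Cd74, H2-Aa and H2-Eb1. Of these, H2-Aa and H2-Eb1 had fewer than 50 UMIs in either library, and the counting interval of the H2-Eb1 ratio (0.937 to 7.47) included 1. The 2 lower ones were B2m and Calr. At a 2-fold limit, 7 members were higher and 1 lower, with no share of all genes given for this limit.

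All 5 immunoproteasome members were higher in cKO in these cells. Psmb8, a catalytic subunit that replaces Psmb5, stood at 216 CPM in Ctrl against 430 in cKO, which is a ratio of 1.99 (1.91 to 2.08). Psmb9, which replaces Psmb6, was at 51.2 and 121 CPM, a ratio of 2.36 (2.16 to 2.57), and Psmb10, which replaces Psmb7, at 22.98 and 56.8 CPM, a ratio of 2.47 (2.17 to 2.82). Psme1 and Psme2, the 2 subunits of the PA28 activator, were at 221 and 176 CPM in Ctrl and at 449 and 334 in cKO, ratios of 2.03 and 1.90. The difference was spread over cells: a Psmb8 UMI was found in 89.4% of Ctrl and 93.5% of cKO cells, and the median cell had 1.85 and 3.83 Psmb8 UMIs per 10000 UMIs. In the order Psmb8, Psmb9, Psmb10, Psme1 and Psme2, the genes were 1.04-fold, 1.65-fold, 0.874-fold, 1.12-fold and 1.22-fold of the Ctrl level in LP-like cells, so that only Psmb9 passed the limit there. In basal-like cells their ratios lay between 0.977 and 1.20, and none passed it. In the cells with both luminal marker sets, 4 of the 5 were higher, with Psmb10 at a ratio of 1.39.

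**Figure D3:**
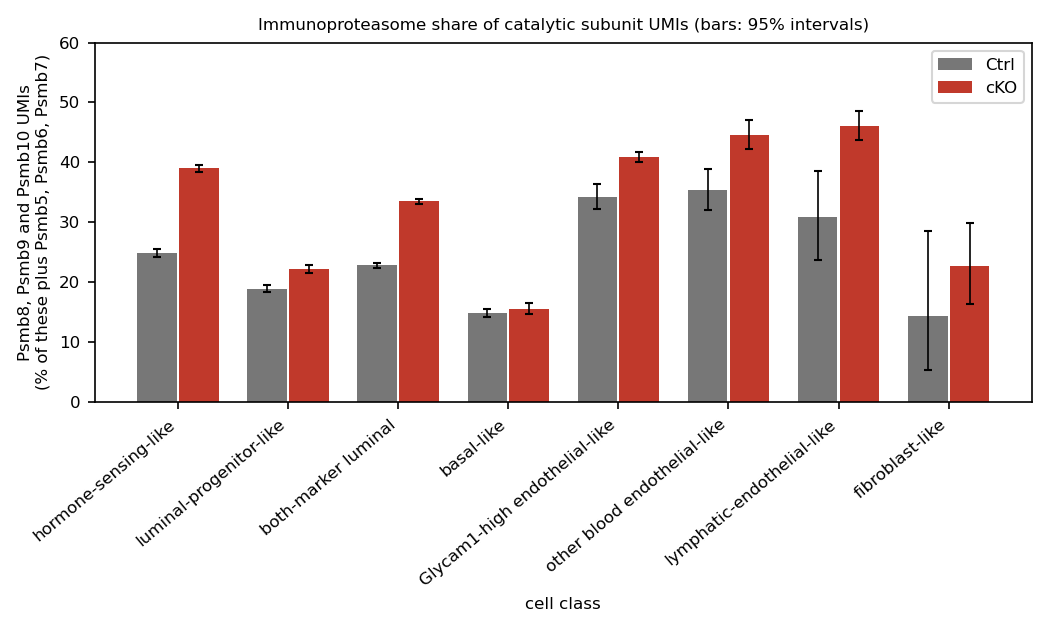
Share of Psmb8, Psmb9 and Psmb10 UMIs among the UMIs of these 3 subunits and of the 3 they replace (Psmb5, Psmb6, Psmb7), in percent, by cell class and library (grey Ctrl, red cKO), with 95% Clopper-Pearson intervals for counting error. HS-like cells go from 24.9% to 39.0%, basal-like cells from 14.9% to 15.6%.

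The mRNA of these 6 genes was compared as shares of their UMIs, and an exchange of subunits in the proteasome itself was not tested. Psmb8, Psmb9 and Psmb10 held 24.9% of the UMIs of the 6 genes in HS-like cells of Ctrl (Clopper-Pearson interval 24.2 to 25.6) and 39.0% in cKO (38.4 to 39.6). The share was 18.9% and 22.2% in LP-like cells, and 14.9% (14.2 to 15.6) and 15.6% (14.7 to 16.5) in basal-like cells, whose intervals overlap. Endothelial cells had the highest shares of Ctrl, at 34.3% in Glycam1-high and 35.4% in other blood endothelial-like cells, and reached 40.9% and 44.6% in cKO. Lymphatic-endothelial-like cells had 30.8% in Ctrl (23.7 to 38.6, from 12 cells) and the highest share of cKO, 46.1% (43.7 to 48.5). Of 16 genes of the constitutive proteasome and its other activators, 1 was higher in cKO and 1 lower in HS-like cells. The higher one was Psmb7, at 187 and 321 CPM, and the lower one Psme4, at 22.2 and 11.5 CPM.

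The heavy chains differed less than the proteasome. In HS-like cells their sum was 1.248-fold higher in cKO (1.23 to 1.26). H2-K1 was at 1365 CPM in Ctrl and 1672 in cKO, and H2-D1 at 1757 and 2191, ratios of 1.23 and 1.247, under the limit. H2-Q4, at 568 and 796 CPM, had a ratio of 1.40. Of 10 heavy chains with enough UMIs, H2-T22 alone passed the limit, at 84.6 and 140 CPM and a ratio of 1.65. H2-T23 (249 and 235 CPM) and H2-M3 (19.4 and 16.1 CPM) were a little lower. The 3′ ends of some of these genes cannot be told apart by a short read: 28.1% of the 100-base stretches at the ends of H2-T22 transcripts also occur in H2-T10, and 29.9% of those of H2-Q6 occur in H2-Q7, H2-Q1, H2-D1 or Cd59b, so these values are uncertain. The shares were smaller for H2-T23 (13.0%) and H2-Q4 (8.64%), whose most frequent matches were with genes outside the MHC.

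B2m and Calr went the other way. B2m was at 1076 CPM in Ctrl and 715 in cKO in HS-like cells, 1.504-fold lower (1.47 to 1.54). This lies at the limit, and under TMM scaling, which sets the libraries to equal levels over most genes, the log2 ratio went from -0.59 to -0.53 and no longer passed it. The median cell had 10.1 B2m UMIs per 10000 UMIs in Ctrl and 6.61 in cKO. Calr, the chaperone calreticulin, which loads class I molecules and stores calcium, was at 427 and 168 CPM, 2.54-fold lower (2.43 to 2.66). Calr was also 2.47-fold lower in LP-like cells (331 and 134 CPM), 1.96-fold lower in basal-like cells (391.9 and 200.1 CPM) and 1.88-fold lower in other blood endothelial-like cells (585 and 311 CPM). In Glycam1-high endothelial-like cells it was at 618 and 437 CPM, 1.42-fold lower and under the limit. Calr was thus called lower in cKO in 4 of these 5 classes. Hspa5, the stress-responsive chaperone BiP, was at 736 and 482 CPM in HS-like cells, and Sec61a1, of the channel into the endoplasmic reticulum, at 56.0 and 29.6 CPM. Both were called lower.

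Of the transport and loading genes in HS-like cells, Erap1, which trims peptides in the endoplasmic reticulum, was at 8.17 and 14.7 CPM, a ratio of 1.81 (1.44 to 2.28). Tap2 was at 119 and 177 CPM, a ratio of 1.48 that passed the limit under TMM scaling. Tap1, its partner in the transporter, was at 35.9 and 40.3 CPM, a ratio of 1.12 (0.998 to 1.27), and Tapbp, tapasin, at 53.8 and 72.9 CPM, a ratio of 1.36. Nlrc5, the transactivator of class I genes, was seen with 20 UMIs in Ctrl against 50 in cKO, for a ratio of 1.93 (1.13 to 3.42). Ciita, the transactivator of class II genes, had no UMI in these cells in either library.

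**Figure D4:**
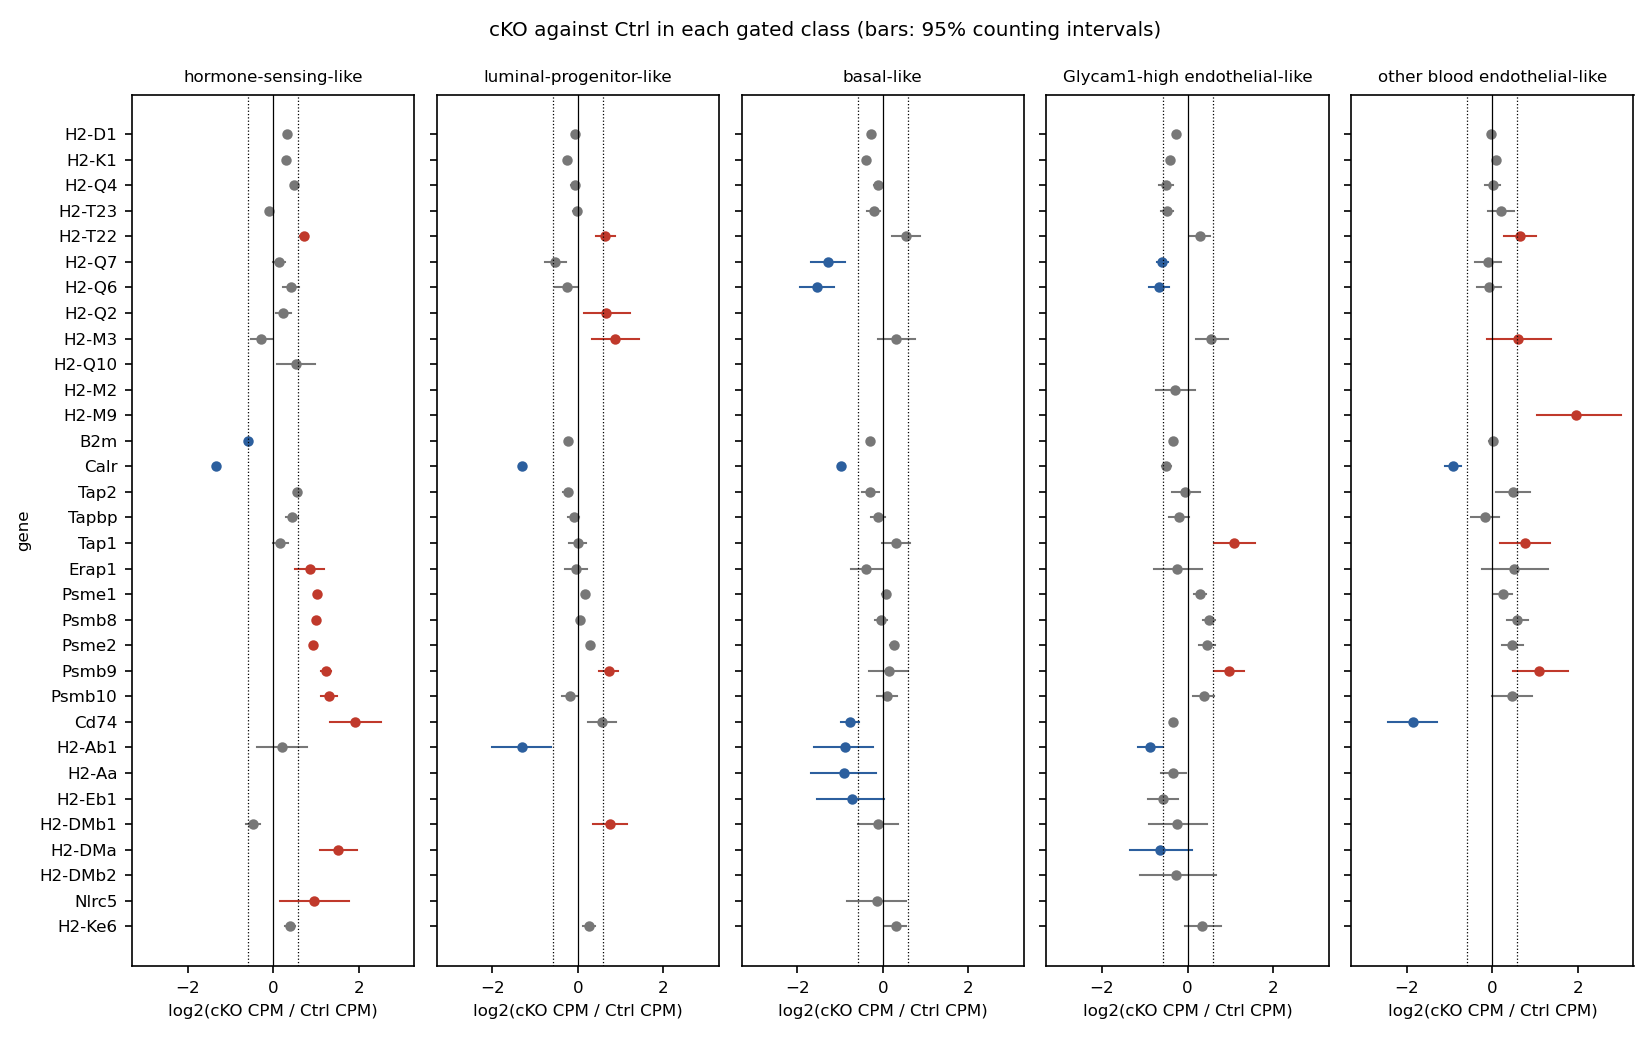
Log2 ratio of cKO to Ctrl for members with 50 UMIs or more in the library where they were higher, in 5 cell classes, with 95% counting intervals; dotted lines mark 1.5-fold, red points are at least 1.5-fold higher in cKO, blue points at least 1.5-fold lower, grey points neither. In HS-like cells all 5 immunoproteasome members are red and Calr (-1.35) and B2m (-0.59) blue; in basal-like cells Calr, the class II genes H2-Aa, H2-Ab1, H2-Eb1 and Cd74, and H2-Q6 and H2-Q7 are blue.

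UMIs of class II chains were few in the luminal classes. In Ctrl no HS-like cell and 6 of 657 LP-like cells held at least 5 of them, and 488 of 549 HS-like cells held none. In cKO, 8 HS-like cells held 45.4% of those of the class, and 12 LP-like cells held 54.8%. Cd74 had 30 UMIs in HS-like cells of Ctrl and 146 in cKO (2.27 and 8.51 CPM), but 43 of the 146 came from 1 cell. The sum of Cd74, H2-Aa, H2-Ab1 and H2-Eb1 was 6.20 CPM in Ctrl and 14.6 in cKO, a log2 ratio of 1.24. Without the 1% of cells of each library with most of these UMIs it was 0.51, and without cells that held a narrow leukocyte marker it was 0.52. H2-DMa, at 4.46 and 12.7 CPM and a ratio of 2.85 (2.13 to 3.87), differed from its partner H2-DMb1, which was at 49.5 and 35.6 CPM. In LP-like cells the sum was 13.7 and 17.4 CPM, and its log2 ratio of 0.34 became -0.27 without cells with a narrow leukocyte marker.

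LP-like cells showed 8 of 29 members higher in cKO and 3 lower, where 7.28% of all genes were higher and 13.2% lower. The members' median log2 ratio was -0.02 and that of all genes -0.11. The 8 were Psmb9 (17.1 and 28.2 CPM), H2-T22 (17.2 and 26.6), H2-DMb1 (5.25 and 8.80), H2-M3 (2.78 and 5.05), H2-Q2 (3.04 and 4.81), H2-DMa, H2-Aa and H2-Eb1. The last 3 had fewer than 50 UMIs in either library, and the counting interval of the H2-DMa ratio (0.932 to 5.89) included 1. Calr was lower, as were H2-Ab1 (3.99 and 1.60 CPM) and H2-Oa, which had 14 and 8 UMIs and an interval that included 1 (0.195 to 1.37). The heavy chain sum was 2526 and 2310 CPM, a ratio of 0.915 (0.902 to 0.927), on the other side of 1 from that of HS-like cells. In the cells with both marker sets, 7 of 30 members were higher and 4 lower, where 11.5% of all genes were higher and 17.8% lower.

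In basal-like cells the members leaned lower in cKO. Of 28 members with enough UMIs, 7 were lower and 1 higher, where 9.02% of all genes were lower and 9.64% higher. The members' median log2 ratio was -0.13 and that of all genes 0.03. H2-Q6 was at 25.4 CPM in Ctrl and 8.79 in cKO, 2.89-fold lower (2.21 to 3.83), and H2-Q7, which encodes Qa-2, at 22.6 and 9.33, 2.42-fold lower (1.85 to 3.20). The heavy chain sum was 3283 and 2627 CPM, 1.2499-fold lower (1.23 to 1.27), with H2-K1 at 1447 and 1097 CPM. Cd74 was at 56.9 and 33.5 CPM, H2-Ab1 at 6.25 and 3.38, H2-Aa at 5.29 and 2.84 and H2-Eb1 at 4.49 and 2.71. All 4 were called lower, though the counting interval of the H2-Eb1 ratio (0.343 to 1.02) included 1. H2-Q2, the 1 member called higher, had 7 and 13 UMIs.

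Against LP-like cells of the same library, basal-like cells had more Cd74 and B2m mRNA and less Psmb8 and Psmb9. In Ctrl 11 of 29 members were higher and 6 lower, where 25.6% of all genes were higher and 29.3% lower, and in cKO 7 of 28 were higher and 6 lower, where 30.3% and 25.5% of all genes were. Cd74 was 7.02-fold higher in Ctrl (5.81 to 8.54) and 2.81-fold in cKO (2.32 to 3.40). Psmb8, Psmb9 and Tap2 were lower in both libraries, with Psmb9 at 8.33 CPM in basal-like and 17.1 CPM in LP-like cells of Ctrl, and at 9.20 and 28.2 CPM in cKO. Psmb10, Psme1 and Psme2 did not pass the limit in either library.

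Most class II UMIs of basal-like cells lay in a small number of cells in Ctrl, but not in cKO. In Ctrl, 45 of 1050 basal-like cells (4.29%) held at least 5 class II UMIs, and these cells had 69.1% of the class II UMIs of the class. In cKO there were 9 such cells of 900 (1%), with 40.1% of the UMIs. The limit of 5 UMIs takes no account of depth, which was lower in cKO (a median of 7416 UMIs per basal-like cell, against 10327.5). After thinning to 1000 UMIs, the share of basal-like cells with any class II UMI was 3.93% in Ctrl and 4.23% in cKO. A UMI of a narrow leukocyte marker was found in 8 of the 45 and 2 of the 9, and in 2.65% and 1.80% of basal-like cells without class II UMIs, which were shallower (a median of 9860 and 7326 UMIs, against 15440 and 11919). The 37 Ctrl cells without such a marker had 168 CPM of Psmb8 against 77.5 in cells without class II UMIs, 2127 CPM of H2-K1 against 1343, 722 CPM of B2m against 460, and 76.2 CPM of H2-Q6 against 21.3. Gbp2, an interferon-induced GTPase, was at 202 against 38.6 CPM and was found in 18 of the 37 cells, and Iigp1, another, at 109 against 1.31 CPM in 8 of them. These cells and genes were chosen after their values were seen, so the values are a description with no test. Without all cells with a narrow leukocyte marker, the log2 ratio of the class II sum between the libraries was -0.56, where it was -0.78 with them.

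Markers of leukocytes were measured beside these values. Of 30 markers of leukocytes, myeloid, dendritic, T and NK, and B cells, 15 were at 0 in basal-like cells of Ctrl and 13 in cKO, and their summed level was 78.6 and 116 CPM. In HS-like cells 19 and 13 were at 0, with a sum of 30.5 and 56.5 CPM, and in LP-like cells 16 and 12, with 27.5 and 34.1 CPM. Ptprc, which encodes CD45 and defines leukocytes, had no UMI in any epithelial class. Most of the marker UMIs were of Trbc2, Cd68 and Arhgdib, and "narrow" here means the other markers of the list without these 3 and Batf3. The part of leukocyte RNA in the class II levels was not tested further.

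Class II mRNA was highest in the Glycam1-high endothelial-like cells. Glycam1 took 20.4% of all UMIs of these cells in Ctrl and 15.3% in cKO, and Chst4 (165 and 160 CPM) and Fut7 (189 and 262 CPM), which make the sugar ligands of L-selectin, were present, against 0 and 6.94 and against 8.18 and 17.7 CPM in other blood endothelial-like cells. Madcam1, another marker of such vessels, was at 0.647 and 9.37 CPM. Cd74 reached 1525 CPM in Ctrl and 1196 in cKO, where other blood endothelial-like cells had 93.5 and 25.9, ratios of 16.3 (13.1 to 20.7) and 46.2 (34.0 to 64.4). H2-Ab1 was at 86.0 and 47.2 CPM, against 8.18 and 4.42, H2-Aa at 73.7 and 58.6, against 11.7 and 1.89, and H2-Eb1 at 55.6 and 37.4, against 11.7 and 3.79. Cd74 was found in 100% of Ctrl and 97.1% of cKO Glycam1-high cells. The Ctrl level in the other blood endothelial-like cells rests on 1 cell with 48 of their 80 Cd74 UMIs. The log2 ratio of the class II sum between the 2 classes was 3.80 in Ctrl and 5.22 in cKO. With the Glycam1 threshold at 0.5 times its value it was 4.92 in Ctrl, and with the threshold 2 times as high it was 3.14 in cKO.

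**Figure D5:**
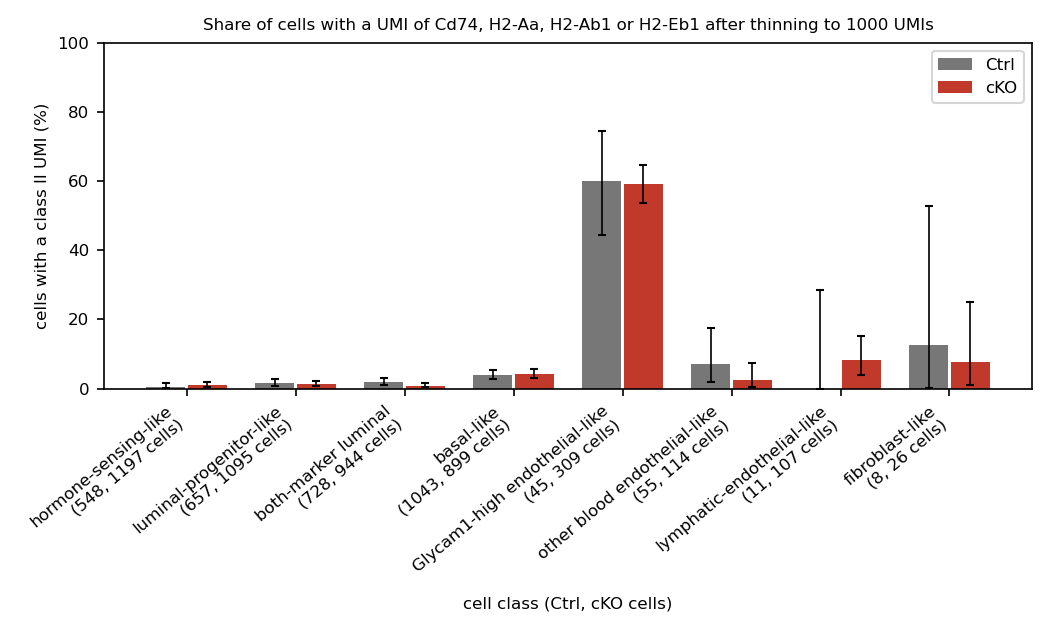
Percent of cells with a UMI of Cd74, H2-Aa, H2-Ab1 or H2-Eb1 after each cell was thinned to 1000 UMIs, by class and library (grey Ctrl, red cKO), with 95% Clopper-Pearson intervals. Glycam1-high endothelial-like cells reach 60% and 59.2%, while basal-like cells lie at 3.93% and 4.23%.

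At equal depth the difference held. After each cell was thinned to 1000 UMIs, 60% of 45 Ctrl cells (interval 44.3 to 74.3) and 59.2% of 309 cKO cells (53.5 to 64.8) of the Glycam1-high class had a class II UMI. The shares were 3.93% and 4.23% in basal-like, 1.52% and 1.37% in LP-like and 0.547% and 1.17% in HS-like cells. Without thinning they were 100% and 97.7% in Glycam1-high cells, 21.0% and 13.8% in basal-like, 19.9% and 10.2% in LP-like and 11.1% and 9.16% in HS-like cells. Set against Glycam1, whose UMIs were also found in other classes, there were 7.49 and 7.80 Cd74 UMIs per 1000 Glycam1 UMIs in Glycam1-high cells, 2011 and 70.5 in basal-like cells and 73.2 and 39.0 in HS-like cells.

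Against HS-like cells, 15 of 30 members were higher and 7 lower in Glycam1-high cells of Ctrl, where 15.8% of all genes were higher and 55.2% lower. In cKO 14 of 32 were higher and 7 lower, where 22% and 42.8% of all genes were. All 4 class II chains with enough UMIs and B2m were higher in both libraries, and H2-Q4, H2-Q2, H2-DMb1, Tap2 and H2-Ke6 lower in both. H2-Q4 was 2.43-fold lower in Ctrl and 4.83-fold in cKO, the reverse of H2-K1, which was 3.34-fold and 2.05-fold higher.

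The class II editors differed within the Glycam1-high class. H2-DMb2 had 14 UMIs in Ctrl and 68 in cKO there, and none in any of the other 7 classes. Against a floor of 3 counts in each library's other blood endothelial-like cells, this is at least 2.58-fold and 3.96-fold higher. The value of H2-DMb2 was lower without cells with a B cell marker, at 5.76 and 5.03 CPM, where it was at 9.06 and 7.49 over all cells. In cells with none of the 30 leukocyte markers it had no UMI in Ctrl (6 cells) and 1 in cKO (47 cells). The intervals of these last values reached 33.9 and 7.81 CPM, above the levels over all cells, so they cannot show a difference. The part of leukocyte RNA in the H2-DMb2 level was not tested. H2-DMa was at 14.2 and 9.04 CPM and H2-DMb1 at 14.9 and 12.5 CPM. H2-Ob had 4 and 21 UMIs and H2-Oa 0 and 10, and Ciita had 0 and 1. H2-M2, a class Ib chain, was at 32.3 and 26.4 CPM, with 0 and 1 UMIs in other blood endothelial-like cells, at least 9.23-fold higher in Ctrl and 41.9-fold (7.45 to 1661) in cKO.

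Leukocyte markers were also found in these cells. Of the 30 leukocyte markers, 13 were at 0 in Ctrl and 6 in cKO, and their sum was 169 and 234 CPM. Arhgdib was found in 80.0% and 70.3% of the cells and Coro1a in 37.8% and 35.5%, while Ptprc was at 1.29 and 1.76 CPM. Cd79a, a B cell marker, was found in 3 of 45 and 21 of 310 cells. Without cells that held a UMI of a B cell marker, which left 41 and 284 cells, Cd74 was at 1431 and 1040 CPM, and H2-Ab1 at 72.1 and 35.5. H2-Aa was at 56.2 and 31.1 CPM without them and H2-Eb1 at 45.4 and 20.4, and these 284 cKO cells held 247 of the 532 H2-Aa UMIs of the class. The part of B cell RNA in these levels was not tested further. Leaving out cells with a marker other than Arhgdib, Coro1a, Trbc2, Cd68 and Batf3 left 38 and 244 cells. In those cells Cd74 was at 1442 and 1065 CPM and H2-Aa at 59.3 and 30.4. In the 47 cKO cells without a UMI of any of the 30 markers, Cd74 was at 989 CPM and H2-Aa at 15.4 CPM, and in the 6 such cells of Ctrl, Cd74 was at 754 CPM and H2-Aa had no UMI. Those cells were shallower, with a median of 15597 UMIs in cKO and 15320 in Ctrl, where all cells of the class had 26552.5 and 31082.

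Class I genes divided the endothelial classes in another way. Of 27 members with enough UMIs in Ctrl, 14 were higher in Glycam1-high than in other blood endothelial-like cells and 2 lower, where 10.8% of all genes were higher and 41.9% lower. In cKO, 14 of 32 were higher and 6 lower, against 14.6% and 35.5% of all genes. B2m was 2.34-fold and 1.82-fold higher and H2-Q7 2.35-fold and 1.69-fold. H2-K1 was 1.89-fold higher in Ctrl and 1.34-fold in cKO, and H2-D1 differed little, with ratios of 1.04 and 0.880. H2-Q4 was lower in Glycam1-high cells, at 234 and 165 CPM against 508 and 509, and so was H2-Q6, at 119 and 74.8 against 210 and 199. The large share of Glycam1 in the total lowers the CPM of every other gene in these cells: with Glycam1 left out of the total, B2m was at 5404 and 3997 CPM and Cd74 at 1915 and 1413. On this scale H2-D1 was higher in Glycam1-high cells in both libraries, at 4425 against 3380 CPM in Ctrl and 3428 against 3301 in cKO, so the direction in cKO turned. H2-K1 was at 5727 against 2412 CPM and at 4055 against 2565, and its difference in cKO then passed the limit.

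Between the libraries, Glycam1-high endothelial-like cells had 3 of 31 members higher in cKO and 4 lower, where 26% of all genes were higher and 6.26% lower. The members' median log2 ratio was -0.26 and that of all genes 0.21. Tap1 was at 26.5 and 56.1 CPM, a ratio of 2.11 (1.54 to 2.98), and Psmb9 at 46.6 and 90.5, a ratio of 1.94 (1.53 to 2.51). Nlrc5 was seen with 1 UMI in Ctrl against 34 in cKO, for a ratio of 5.79 with an interval of 0.972 to 235. H2-Ab1 was at 86.0 and 47.2 CPM, 1.82-fold lower (1.49 to 2.22), H2-Q6 1.59-fold and H2-Q7 1.503-fold lower, and H2-DMa had 22 and 82 UMIs. The sums were 9385 and 7330 CPM for the heavy chains (1.28-fold lower) and 1741 and 1339 for class II (1.30-fold lower). Without cells with any leukocyte marker UMI, which left 6 Ctrl cells, the log2 ratio of the class II sum was 0.49, where it was -0.38 over all cells. Without cells with a B cell marker, which left 41 and 284 cells, each gene of the sum stayed lower in cKO. Cd74 was then at 1431 and 1040 CPM and H2-Ab1 at 72.1 and 35.5. The part of leukocyte RNA in this difference was not tested. Under TMM scaling, which moved every log2 ratio in this class by -0.14, 8 members were lower, with no share of all genes given for this scaling.

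In other blood endothelial-like cells 6 of 22 members were higher and 2 lower, where 16.5% of all genes were higher and 9.64% lower. Their median log2 ratio was 0.35 and that of all genes 0.07. Psmb9 was at 31.6 and 67.5 CPM, a ratio of 2.14 (1.39 to 3.40), Tap1 at 39.7 and 66.9, H2-T22 at 94.7 and 148 and H2-M3 at 25.7 and 39.1. H2-Ke6 was also higher, with 14 and 41 UMIs. The counting intervals of H2-M3 (0.923 to 2.60) and H2-Ke6 (0.845 to 3.14) included 1, and both calls were lost at 0.5 times the gate thresholds, with log2 ratios of 0.52 and 0.42. That of H2-M3 was also lost under TMM scaling (0.57). Psmb8, at 221 and 331 CPM, lay just under the limit with a ratio of 1.498. Calr and Cd74 were lower, and Cd74 turned to a log2 ratio of 0.36 from -1.85 when the gates were set 2 times as high, and the class II sum to 0.27 from -1.80. H2-M9, the sixth higher member, had 11 UMIs in Ctrl, all in 1 cell, and 79 in cKO, in 12 of 115 cells. The cells with an H2-M9 UMI had 498 and 538 CPM of 5 pericyte markers, and the cells without one 48.1 and 66.4.

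Genes of interferon signalling were measured beside these members. Irf1, a transcription factor that interferons induce, was called higher in cKO in all 5 classes named here, at 33.7 and 77.6 CPM in HS-like, 23.9 and 48.7 in LP-like, 41.9 and 109 in basal-like, 33.6 and 115 in Glycam1-high and 124 and 213 in other blood endothelial-like cells. Of 14 genes of interferon signalling, 3 were higher and 1 lower in HS-like cells, 2 and 0 in LP-like, and 9 and 0 in Glycam1-high endothelial-like cells. Of all genes, 13.6% were higher and 17.6% lower in HS-like cells, 7.28% and 13.2% in LP-like cells, and 26% and 6.26% in Glycam1-high cells. Of the 13 with enough UMIs in basal-like cells 4 were higher and none lower, where 9.64% of all genes were higher, and the same counts were found in other blood endothelial-like cells, where 16.5% were. Socs1, a feedback inhibitor of this pathway, was at 10.5 and 23.03 CPM in HS-like and 55.8 and 107 in basal-like cells. Both genes were higher in cKO in basal-like cells, where no immunoproteasome member passed the limit. A link between these genes and the immunoproteasome members was not tested.

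Of the other lists in HS-like cells, Tapbpl, a relative of tapasin that edits class I peptides, was higher at 20.2 and 30.5 CPM. Among 5 class II proteases with enough UMIs, Ctsl, cathepsin L, was higher at 605 and 1049.7 CPM, and Ctsd, cathepsin D, lower at 1212 and 326 CPM. Among 5 other MHC-like genes, Cd1d1, which presents lipids, was lower at 13.2 and 3.61 CPM. Cd274, which encodes the checkpoint ligand PD-L1, was higher at 1.44 and 4.95 CPM. None of 4 NF-κB subunits passed the limit in any of the 5 classes.

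Within a class, cells with more H2-K1 also had more H2-D1. Over cells of 1 class and library, H2-D1 was the gene whose log-scaled level correlated best with that of H2-K1 in all 8 sets examined, with Pearson's r from 0.30 in 900 basal-like cells of cKO to 0.79 in 45 Glycam1-high endothelial-like cells of Ctrl. B2m ranked 2 or 3 in the 6 epithelial sets, at r from 0.22 to 0.46. In Glycam1-high endothelial-like cells it ranked 3 in cKO (r = 0.38) and 3503 of 6696 genes in Ctrl (r = 0.06). H2-Q4 ranked among the first 5 genes in the LP-like and basal-like sets, at r from 0.18 to 0.29, but 1156 of 7010 in HS-like cells of Ctrl (r = 0.07), the class where its level was highest. In Glycam1-high endothelial-like cells, the 3 genes that correlated best with Cd74 were H2-Aa, H2-Ab1 and H2-Eb1 in both libraries, with r of 0.70, 0.69 and 0.63 in Ctrl and 0.61, 0.47 and 0.50 in cKO. Cells of a set share a library and differ in depth, and these correlations are descriptions over cells.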

How the data were processed

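The 2 mouse mammary single-cell libraries used, per the labels' protocols, version v2 of the 10x Chromium 3′ kit. The deposited values are UMI counts per gene and cell, made with Cell Ranger 2 against mm10 per the submitters' processing notes, and the matrix headers name software version 3.0.0. The extent of any filter before deposit is not given in the sources used here.

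Cells with at least 500 genes and at most 10% mitochondrial UMIs were kept. Doublets were called by Scrublet in scanpy 1.11.5 (expected rate 0.8% for every 1000 cells): 27 in Ctrl (0.790%) and 55 in cKO (1.001%) were left out. Cells were gated on summed markers per 10000 UMIs of a cell: luminal 100, hormone-sensing 8, luminal progenitor 16, basal 50, endothelial 8, Glycam1 100, lymphatic 5 and fibroblast 20. Upper limits on the other classes' markers also applied. Gate thresholds were set after seeing the data. The members and lists were chosen with earlier results of these data known.

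For each class and library, counts were added up over cells and divided by the total (CPM). Intervals are 95% and cover counting error only: exact Poisson for a level, exact conditional binomial for a ratio, Clopper-Pearson for a share. A ratio against a sum of 0 uses a floor of 3 counts. No test between groups was made, because there was 1 library per group. Genes with at least 20 UMIs over both sums and a 1.5-fold difference were called. By the naming rule, a member was given its own values in a class where its higher sum reached 50 UMIs, and a gene of another list where it was also called. Members and genes named with fewer UMIs account for a count or were chosen after their values were seen, as were the interferon-induced GTPases. The calls were run on simulated counts with 2-fold changes planted in genes with many expected UMIs. The simulation held counting error only, so it cannot speak to differences between mice or libraries, or to genes near the 20 UMI limit. Shares of cells were computed after thinning each cell to 1000 UMIs, which left out 0 to 7 cells per class and library. Correlations used log-transformed counts per 10000 UMIs.

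Promoter windows came from RefSeq (GRCm38.p6) and gene positions from GENCODE M21. The tools were Python 3.11.15 with numpy 2.4.6, scipy 1.17.1, pandas 2.3.3 and matplotlib 3.10.9, and R 4.3.3 with edgeR 4.0.16, used only for TMM factors as an alternative scaling. Other alternatives were gate thresholds, filters on cells and genes, a 2-fold limit, another thinning depth, and leaving out cells with leukocyte markers or the cells with most UMIs of the summed genes.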

Additional observations from a re-analysis of the deposited data

Results flagged for a closer look

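Class II mRNA stood out because its direction between the libraries was opposite in different cell classes, and the difference between classes was not tested. The log2 ratio of Cd74 (cKO to Ctrl) was 1.91 in HS-like cells, -0.76 in basal-like cells and -1.85 in other blood endothelial-like cells. The log2 ratio of the class II sum was 1.24, -0.78 and -1.80 in the same 3 classes. The value in other blood endothelial-like cells includes 1 Ctrl cell with 48 of 80 Cd74 UMIs, and the value in HS-like cells includes 1 cKO cell with 43 of 146.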

How the results depend on the processing

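No paired analysis was possible because each group has 1 library. Of the compared sums, counts of members and shares of cells, 185 values stayed within their counting interval or within 1.5 times the count, 75 moved outside it, and 1 that was past 1.5-fold as reported changed sign. Sums under 1.5-fold also changed sign, and are among the values that moved: class II in LP-like and Glycam1-high cells and class I in other blood endothelial-like cells. Class I in the last also went to -0.00063 under TMM scaling, within its interval. Sums are log2 ratios, with the value as reported in brackets. Counts of members under an alternative are given without the share of all genes, so they have no background. The causes were not tested.

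With gates 2 times as high, the class I sum (cKO to Ctrl) was 0.35 in HS-like cells (0.32), and the class II sum was -1.24 in basal-like cells (-0.78) and reversed to 0.27 in other blood endothelial-like cells (-1.80), as did Cd74 alone, at 0.36 (-1.85). The members lower in HS-like cells numbered 1 (2), and those higher in Glycam1-high cells 5 (3). Class I in HS-like against LP-like cells of cKO was 1.21 (1.17), class II in basal-like against LP-like cells of cKO 0.88 (1.29), and class I in Glycam1-high against HS-like cells of cKO 0.45 (0.50). With at most 5% mitochondrial UMIs, 1 member was lower in HS-like cells, and class I was 0.089 in other blood endothelial-like cells (0.04).

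Without cells with a UMI of any of 30 leukocyte markers, class I (cKO to Ctrl) was 0.29 in HS-like (0.32), -0.18 in Glycam1-high (-0.36) and -0.078 in other blood endothelial-like cells (0.04). Class II was 0.31 in HS-like (1.24), -0.092 in LP-like (0.34), 0.49 in Glycam1-high (-0.38) and -0.13 in other blood endothelial-like cells (-1.80). The Glycam1-high value rests on 6 Ctrl and 47 cKO cells. Members higher were 5 in LP-like (8), 0 in basal-like (1) and 5 in Glycam1-high cells (3), and 7 were lower in the last (4). Between classes, class I was 0.77 for HS-like against LP-like cells of Ctrl (0.72), 1.06 and 0.58 for Glycam1-high against HS-like cells in Ctrl and cKO (1.18 and 0.50), and 0.28 and 0.17 for Glycam1-high against other blood endothelial-like cells (0.43 and 0.03). Class II was 2.04 for basal-like against LP-like cells of Ctrl (2.42), -0.84 for HS-like against LP-like cells of cKO (-0.25), 7.21 and 7.38 for Glycam1-high against HS-like cells (8.13 and 6.52), and 4.62 for Glycam1-high against other blood endothelial-like cells of cKO (5.22). The thinned shares with a class II UMI were 0% in HS-like (0.547%) and other blood endothelial-like cells (7.27%) of Ctrl, and 33.3% and 42.6% in Glycam1-high cells of Ctrl and cKO (60% and 59.2%).

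Under TMM scaling, which moved log2 ratios by -0.14 in Glycam1-high cells, class I was 0.38 in HS-like, -0.033 in LP-like, -0.37 in basal-like and -0.49 in Glycam1-high cells, class II was -0.51 in the last, and 1 member was lower in HS-like and 8 in Glycam1-high cells. At a 2-fold limit, 7 members were higher and 1 lower in HS-like cells, 2 higher in LP-like, 2 lower in basal-like, 0 lower in Glycam1-high, and 2 higher and 1 lower in other blood endothelial-like cells. Without the 1% of cells with most UMIs of the summed genes, class II was 0.51 in HS-like, -0.38 in LP-like and -0.31 in Glycam1-high cells, and 1 member was lower in the first and 2 in the last. With at least 100 UMIs, 5 members were higher and 1 lower (3) in LP-like cells, 0 higher in basal-like and 3 higher in other blood endothelial-like cells (6). With at least 1 UMI, 13 were lower in basal-like (7), 7 higher in Glycam1-high, and 10 higher and 9 lower in other blood endothelial-like cells (6 and 2). With the Glycam1 threshold at 0.5 times its value, class II in Glycam1-high against other blood endothelial-like cells of Ctrl was 4.92 (3.80), and 2 times as high it was 3.14 in cKO (5.22). After thinning to 2000 UMIs, the shares with a class II UMI in Ctrl were 3.37% in LP-like, 7.82% in basal-like and 81.8% in Glycam1-high cells, and in cKO 2.18% in HS-like, 2.68% in LP-like, 5.96% in basal-like and 75.8% in Glycam1-high cells.

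The alternatives in this paragraph, and leaving out cells with a B cell marker, were chosen after seeing the data. Without cells near a gate limit, 1 member was lower in HS-like cells and class II was -0.82 in other blood endothelial-like cells. Without cells with a narrow leukocyte marker, class II was 0.52 in HS-like, -0.27 in LP-like and -0.56 in basal-like cells.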
